A study of Mus musculus with 32 samples.

Results

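The genes described here encode the proteins of the cytosolic ribosome, followed through the atria of mice with reduced phosphoinositide 3-kinase (PI3K) signalling, with the kinase Mst1, or with both. Members were taken by symbol: Rpl or Rps followed by a number and at most an a, l or x, together with the stalk genes Rplp0, Rplp1 and Rplp2 and the gene Rpsa. Of 19938 genes that had a probe set with a single symbol, 59 met this rule, 37 of the large subunit and 22 of the small, and a gene with several such probe sets was represented by its brightest. The filter on low signals was passed by 58 of them; Rpl39l, with animal means between 3.10 and 3.88 log2, was not tested. RefSeq lists 81 protein-coding symbols that fit the rule, and 23 of these are not members, 16 of them because their probe sets carry several symbols, among them Rpl3, Rpl11, Rpl39 and Rps27. Rps4l, a member, is not protein-coding in RefSeq.

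Both atria of 16 mice were profiled separately, 1 Affymetrix Mouse Gene 1.0 ST array each. All mice had a mixed C57BL/6 and FVB/N background, and each genotype had 4 animals: non-transgenic controls (Ntg), a dominant negative PI3K (dnPI3K), the mammalian sterile 20-like kinase Mst1 (Mst1), and both transgenes (dnPI3K-Mst1). The design addresses how the atria respond to these changes, singly and together. Age, sex, the promoters that drive the transgenes and the number of founder lines are not given in the sources used here. Values are log2 probe set signals, averaged over the 2 atria of an animal, so n is 4 per genotype and that number limits the precision. A gene is called changed where limma's moderated test gave a Benjamini-Hochberg adjusted p under 0.05 over 15219 genes.

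A eukaryotic ribosome joins a small subunit, which reads the messenger RNA, and a large subunit, which forms the peptide bonds, and nearly every ribosomal protein is needed in equal amount. Their messenger RNAs begin with a run of pyrimidines, the 5′ terminal oligopyrimidine (TOP) motif, through which mTORC1, a kinase downstream of PI3K, sets how heavily they are translated. Control by this route acts on translation, which an array of transcript levels does not measure. A few members have paralogs of restricted expression, and Rpl3l, which takes the place of Rpl3 in the ribosomes of heart and skeletal muscle, is the best known in the heart.

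Promoter entries from RefSeq (build GRCm38.p6) matched 47 of the 59 members, each covering 250 bases before and 50 bases from the annotated start. The sequences shown run from 60 bases before the start to the base at position 20, for the member with the largest change, Rpl3l, and 4 others; capitals mark a run of at least 7 bases that reaches within 10 bases of it. Rps6 is shown as the substrate of the kinase S6K, and Rps10, Rpl28 and Rpsa because they return in the results.
Rpl3l, chr17:24727766-24727845, plus strand: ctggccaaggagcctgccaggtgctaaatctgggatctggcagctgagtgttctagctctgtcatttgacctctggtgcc
Rps6, chr4:86857348-86857427, minus strand: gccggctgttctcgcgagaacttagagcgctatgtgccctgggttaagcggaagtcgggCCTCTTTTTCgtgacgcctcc
Rps10, chr17:27635225-27635304, minus strand: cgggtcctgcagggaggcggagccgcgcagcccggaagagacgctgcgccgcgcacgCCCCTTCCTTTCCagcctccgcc
Rpl28, chr7:4792905-4792984, plus strand: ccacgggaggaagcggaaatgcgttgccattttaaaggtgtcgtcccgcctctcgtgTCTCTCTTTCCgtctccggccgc
Rpsa, chr9:120127706-120127785, plus strand: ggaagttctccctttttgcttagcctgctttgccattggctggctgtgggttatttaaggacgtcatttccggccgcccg
The runs of Rps6, Rps10 and Rpl28 are 10, 13 and 11 bases long. Within 10 bases of the start, the longest in Rpl3l and in Rpsa is 5 bases, so the absence of a longer run there does not set Rpl3l apart. Runs farther from the start, as in Rpsa, were not counted. A run of at least 7 C or T bases near the start, on the gene's own strand, was found in 22 of the 47 member promoters (46.8%), against 19.5% of all 27025 genes in the table. The letters CCGGAAG, bound by ETS family factors, were present on either strand in 17 member promoters (36.2%, against 9.12%), and TATAAA in 5 (10.6%, against 14.2%). AAGATGG, a YY1 motif, was in 3 (6.38%, against 6.48%), and GGAATG, bound by the TEAD partners of YAP, in 1 (2.13%, against 14.6%). The motifs were counted separately, overlaps included, and a match describes these letters only.

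As a check of the labels, Stk4, which encodes Mst1, was 1.63-fold above Ntg in Mst1 (adjusted p = 3.27e-06) and 1.73-fold above it in dnPI3K-Mst1 (adjusted p = 6.67e-07), and 1.05-fold above it in dnPI3K, which did not pass. Pik3ca, which encodes the catalytic subunit of PI3K, was higher in all 3 transgenic groups, by 1.89-fold with dnPI3K, 1.53-fold with Mst1 and 2.23-fold with both. It was called in Mst1 too (adjusted p = 0.0014), so it does not mark the dnPI3K transgene alone. Array medians lay between 5.51 and 5.68 log2. Each animal had one array high in Bmp10, known as a gene of the right atrium, and one low in it, and the array labelled left was the high one in 13 of 16 animals; the side labels therefore go against this marker, but the animal means used for the genotypes do not depend on them. The animal Mst1 1466 stands apart: the mean correlation of its left array with the others was 0.949, the lowest, and several results are given with and without it.

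The cytosolic ribosomal protein genes, apart from Rpl3l, showed small changes in Mst1 atria. Against Ntg, 1 of 58 tested members was called lower and 0 higher, while 26.8% of all genes were called in this comparison (12.6% higher, 14.2% lower). Without Rpl3l the changes of the members ran from -0.24 to 0.24 log2, and the median over all 58 was 0.0023 log2, beside -0.0011 over all genes. At an unadjusted p under 0.05, 2 members were higher and 3 lower. The 95% confidence interval of the change lay wholly within 0.5 log2 of no change, or 1.41-fold, for 53 of 58 members and for 75.0% of all genes. The median SE of a member's change was 0.095 log2. Changes as large as 0.24 log2 were not called, so the counts of calls say little about changes up to that size.

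In dnPI3K atria, the model of reduced growth signalling, limma called 0 members higher and 0 lower against Ntg, beside 4.05% of all genes (1.29% higher, 2.75% lower), and at an unadjusted p under 0.05 there were 0 higher and 1 lower (Rpl3l). The median change was 0.049 log2, with 36 members positive and 22 negative. Intervals within 0.5 log2 were found for 55 of the 58 members, against 89.0% of all genes. Leaving aside Rpl3l, the members moved between -0.17 and 0.18 log2.

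With both transgenes, 2 members were called lower than in Ntg, Rpl3l and Rpl36, and 0 higher, where 30.6% of all genes were called (16.4% higher, 14.2% lower). The median change was -0.0052 log2, with 29 members above 0 and 29 below, and at an unadjusted p under 0.05 there were 2 higher and 5 lower. The interval lay within 0.5 log2 for 53 of 58 members and for 71.9% of all genes. These 3 comparisons share the Ntg animals.

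**Figure D1:**
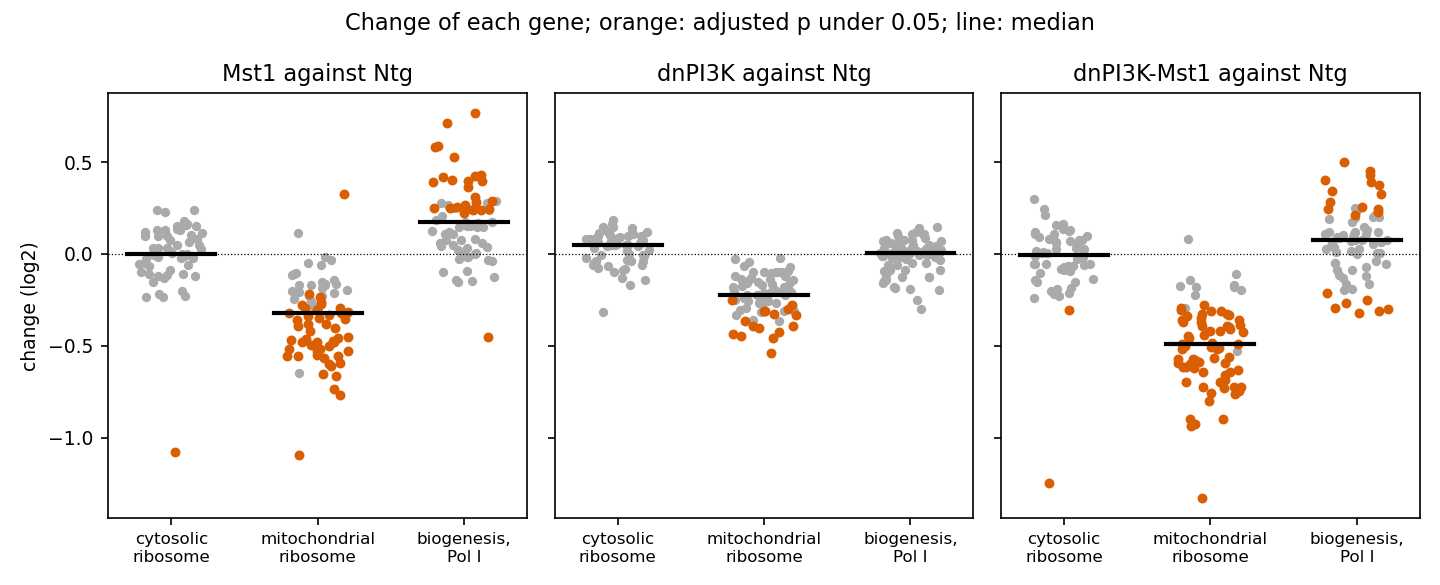
Change against Ntg (log2, vertical axis) of each tested gene among 58 cytosolic ribosomal protein genes, 77 mitochondrial ribosomal protein genes and 71 genes of ribosome biogenesis and RNA polymerase I (Pol I), in the 3 transgenic genotypes; orange points passed an adjusted p under 0.05 (limma), grey ones did not, and black lines are medians. The cytosolic points gather around 0 with Rpl3l alone near -1 in Mst1 and dnPI3K-Mst1, while the mitochondrial medians lie at -0.32, -0.22 and -0.49.

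Rpl3l (Entrez 66211) was the member with the largest change. Its signal in the Ntg animals was 5.86, 5.82, 5.95 and 6.07 log2, and in the dnPI3K animals 5.38, 5.97, 5.64 and 5.46. The Mst1 animals gave 5.01, 4.68, 4.91 and 4.79, and the dnPI3K-Mst1 animals 4.79, 4.53, 4.87 and 4.53. All 8 animals with Mst1 lay below all 8 without it, whereas dnPI3K overlapped Ntg through 1 animal, dnPI3K 1648.

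The fall of Rpl3l was 1.08 ± 0.12 log2 (SE), or 2.12-fold, in Mst1 against Ntg (adjusted p = 8.12e-07), and 2.38-fold in dnPI3K-Mst1 against Ntg (-1.25 ± 0.12 log2, adjusted p = 1.05e-07). In dnPI3K its change of -0.31 ± 0.12 log2 did not pass (adjusted p = 0.149), although it did without dnPI3K 1648 (-0.43 log2, adjusted p = 0.0322). The difference between the single transgenes was itself called, Mst1 lying 0.77 ± 0.12 log2 below dnPI3K, or 1.70-fold (adjusted p = 6.96e-05). Adding dnPI3K to Mst1 gave a further -0.17 log2 (95% interval -0.41 to 0.07, adjusted p = 0.516), and the departure from additivity was 0.15 log2 (interval -0.20 to 0.49). The gene has a single probe set with a mean of 5.27 log2, and the lowest animals lay near the filter at 4.48 log2.

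Some markers of the cardiac myocyte, in which Rpl3l is known to be expressed, were lower in the same groups. Of 15 myocyte markers, 0 were higher and 6 lower in Mst1, 0 and 0 in dnPI3K, and 1 higher and 8 lower in dnPI3K-Mst1. That is 40% of the list in Mst1 and 60% in dnPI3K-Mst1, beside 26.8% and 30.6% of all genes called, with 14.2% called lower in each. The median change of the list in Mst1 was -0.18 log2 and became -0.044 log2 without Mst1 1466, with 0 higher and 6 lower as before. Troponin I (Tnni3) had the largest fall of the list, 1.66-fold in Mst1 and 1.77-fold in dnPI3K-Mst1. The mean marker level per animal spanned 11.84 to 11.95 log2 for Ntg, 11.82 to 11.86 for dnPI3K, 11.43 to 11.80 for Mst1 and 11.498 to 11.75 for dnPI3K-Mst1. Markers of other cell types are given as higher and lower counts for Mst1 and then dnPI3K-Mst1 against Ntg. Of 13 fibroblast markers, 4 and 1 were called in Mst1 and 9 and 1 with both transgenes, and of 10 smooth muscle and pericyte markers 5 and 3, then 6 and 1. Of 11 endothelial markers 1 and 6 were called in Mst1 and 3 and 3 with both, and of 11 macrophage markers 1 and 1, then 5 and 0. The 7 lymphocyte markers gave 1 and 0, then 3 and 0, the 6 adipocyte markers 0 and 1, then 0 and 0, and the 2 erythroid markers 0 and 0, then 0 and 1. In dnPI3K, 1 fibroblast marker was called higher and 0 markers of the other types were called. Without Mst1 1466 the counts in Mst1 became 5 and 1 for fibroblast, 2 and 0 for macrophage, 0 and 0 for lymphocyte and 0 and 1 for erythroid markers. The other lists kept their counts, beside 17.5% of all genes called higher and 14% called lower. In tissue RNA, fewer cells of a type and less RNA per cell cannot be told apart, and the part of the markers in the fall of Rpl3l was not tested.

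Within animals, the array with less Bmp10 had more Rpl3l in 4 of 4 Ntg animals, by a mean of 0.61 ± 0.38 log2 (SD, n = 4). The same order held in 2 of 4 dnPI3K, 3 of 4 Mst1 and 2 of 4 dnPI3K-Mst1 animals, with mean differences of -0.037, 0.27 and 0.073 log2. Every Ntg animal showed the order and the other genotypes were mixed; the pattern was noticed after the values were seen, and its difference between genotypes was not tested. By labelled side, limma called 0 of 58 members, as it called 0% of all genes, and 1 member had an unadjusted p under 0.05. Each labelled side mixes arrays high and low in Bmp10, so these counts cannot show whether members differ between the atria.

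**Figure D2:**
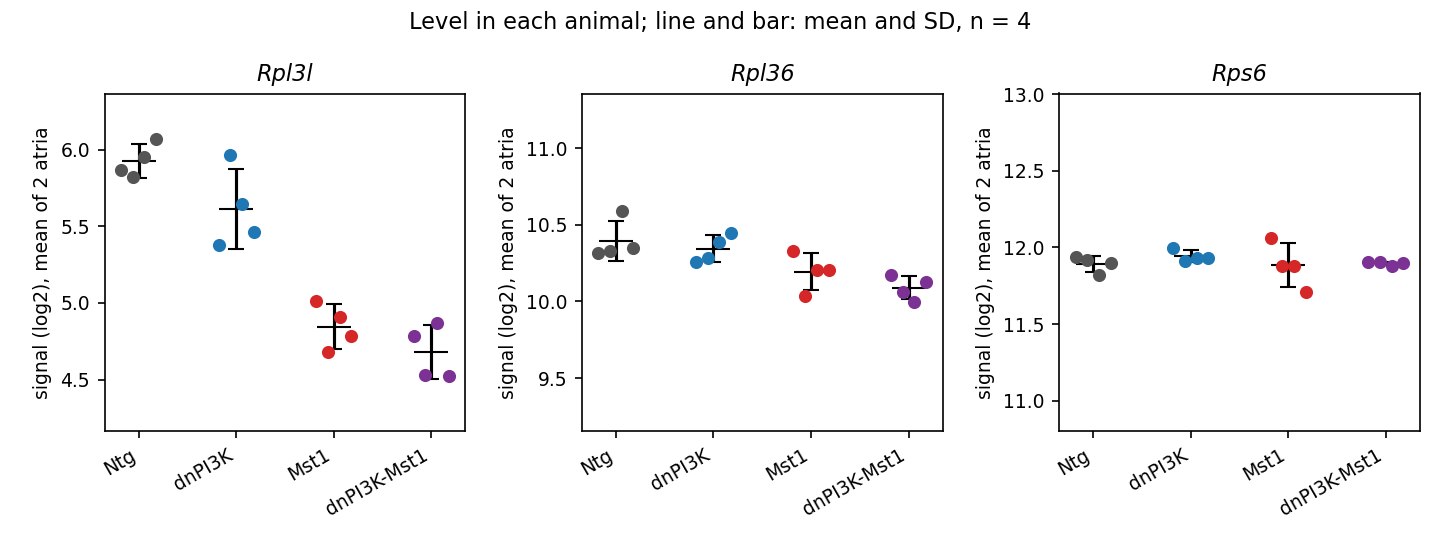
Signal (log2, mean of the 2 atria, vertical axis) of Rpl3l, Rpl36 and Rps6 in each animal by genotype; points are animals, and the line and bar are the mean and SD (n = 4). The vertical span is the same in the 3 panels, and levels of different genes cannot be compared on an array. Rpl3l separates the groups with Mst1 from those without it, Rpl36 shifts by 0.31 log2 between Ntg and dnPI3K-Mst1, and Rps6 stays between 11.71 and 12.06.

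Rpl36, a small protein of the large subunit, was the other member called. Its animals measured 10.32, 10.33, 10.59 and 10.35 log2 in Ntg and 10.17, 10.06, 9.999 and 10.13 in dnPI3K-Mst1, with no overlap. It fell by 0.31 ± 0.08 log2 (SE), or 1.24-fold, in dnPI3K-Mst1 against Ntg (adjusted p = 0.00713), and it was also lower there than in dnPI3K (-0.25 log2, adjusted p = 0.0307), a call that held in 20 of 28 alternative analyses. In Mst1 alone its change of -0.20 log2 did not pass (adjusted p = 0.0758). All 9 of its probe sets were called lower in dnPI3K-Mst1 against Ntg when each was fitted on its own, with changes from -0.24 to -0.36 log2; they may share target sequence and are not independent. The call against Ntg was lost with arrays of one labelled side only.

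Genes of the stalk proteins, which recruit the elongation factors, were not called in any comparison. Rplp0, often used as a reference gene, averaged 11.65 ± 0.11 log2 for Ntg, 11.75 ± 0.03 for dnPI3K, 11.68 ± 0.04 for Mst1 and 11.72 ± 0.11 for dnPI3K-Mst1 (SD, n = 4). Rplp1 was 0.15, 0.12 and 0.12 log2 above Ntg in Mst1, dnPI3K and dnPI3K-Mst1, and Rplp2 differed by -0.01, 0.08 and -0.07; none of these passed. The Rplp1 animals of Mst1 and dnPI3K lay above those of Ntg by a narrow margin. Their lowest values were 11.749 and 11.757 log2, and the highest Ntg value was 11.747. Animals did not overlap for 25.8% of all genes in Mst1 and 11.4% in dnPI3K against Ntg.

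Rps6 changed by -0.01 log2 in Mst1 (95% interval -0.15 to 0.13), 0.05 in dnPI3K (-0.09 to 0.19) and 0.0035 in dnPI3K-Mst1 (-0.14 to 0.15). Rps4x, the small subunit protein encoded on the X chromosome, changed by 0.02, 0.08 and 0.02 log2 in the same order. Rpl5, which with Rpl11 and the 5S RNA restrains Mdm2 and so stabilises p53 when assembly fails, changed by 0.13, 0.11 and 0.09 log2. None of these 3 genes passed in any comparison, and the 95% intervals of their changes against Ntg all lay between -0.16 and 0.28 log2.

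The paralogs other than Rpl3l are less certain. Rpl10l, a paralog best known from testis, lay near the filter with animals between 4.02 and 5.25 log2, and its change in Mst1 had an interval from -0.28 to 0.55 log2. Rps27l, which p53 can induce, measured 8.12 log2 in Mst1 1466 and between 7.06 and 7.30 in the other Mst1 animals. Rpl22 changed by -0.01 log2 in Mst1 and Rpl10 by 0.10, and neither passed. The related genes Fau, Rpl7l1 and Rps3a1, which the naming rule does not reach, were tested as well, and 0 of the 3 were called in any comparison with Ntg. Fau, which encodes a ubiquitin-like protein fused to a small subunit protein, changed by -0.10 log2 in Mst1 (adjusted p = 0.509), and without Mst1 1466 it was called lower (-0.20 log2, adjusted p = 0.0481).

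Other comparisons gave few calls. Between dnPI3K-Mst1 and Mst1 limma called 0 members higher and 0 lower, with 0 and 0 at an unadjusted p under 0.05, where 3.5% of all genes were called (2.65% higher, 0.848% lower). Against dnPI3K, 2 members were lower in dnPI3K-Mst1 (Rpl3l and Rpl36, beside 21.6% of all genes called and 8.8% called lower) and 1 was lower in Mst1 (Rpl3l, beside 21.9% called and 10% called lower). The term for non-additivity was called for 0 members, with 0 at an unadjusted p under 0.05, and for 0.513% of all genes (0.368% above and 0.145% below additivity). Without Mst1 1466 the median of the members in dnPI3K-Mst1 against Mst1 went from -0.0073 to 0.062 log2, with 9 of 58 negative instead of 33. In Mst1 against dnPI3K it went from -0.027 to -0.12 log2, with 50 negative instead of 38.

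Animals of 2 genotypes that did not overlap were counted as well. In Mst1 against Ntg this held for 2 members above (Rplp1, Rps14) and 1 below (Rpl3l), beside 25.8% of all genes, and in dnPI3K for 2 above (Rpl23a, Rplp1), beside 11.4%. In dnPI3K-Mst1 against Ntg it held for 3 above (Rpl23a, Rpl36a, Rps12) and 4 below (Rpl3l, Rpl36, Rps13, Rps19), beside 33.5%. Against dnPI3K, dnPI3K-Mst1 had 6 members below (Rpl3l, Rpl36, Rpl9, Rps15, Rps6 and Rpsa), beside 25.5%, and Mst1 had Rpl3l alone, beside 22%. Between dnPI3K-Mst1 and Mst1 it held for 0 members above and 0 below, beside 11.4%.

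**Figure D3:**
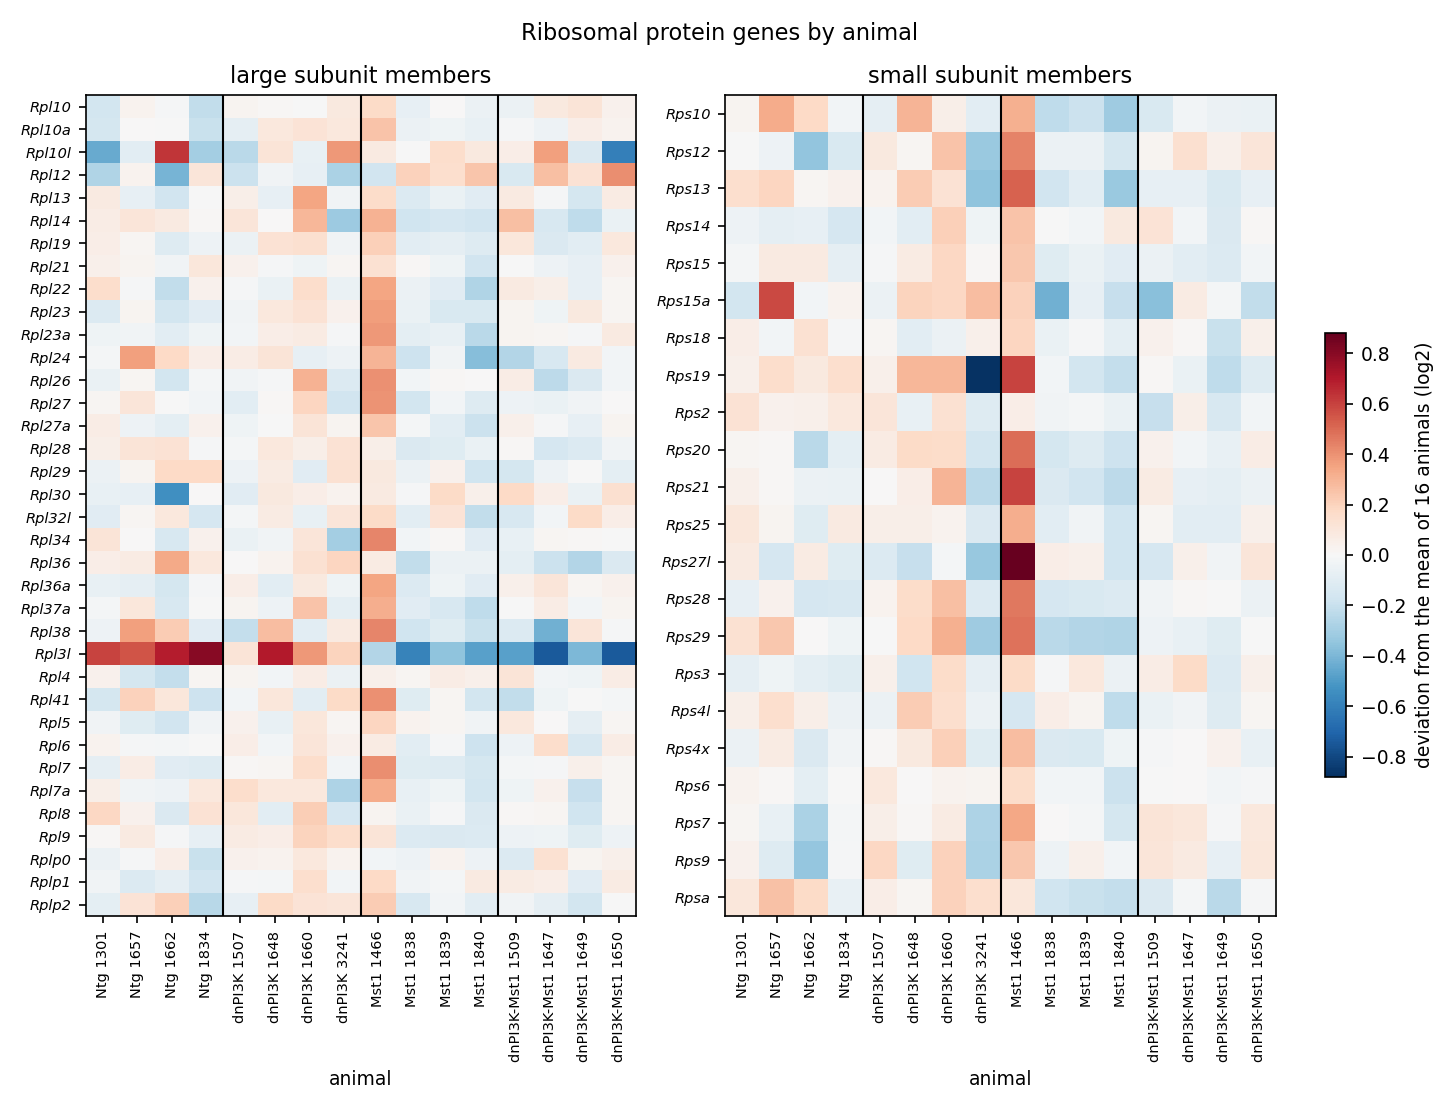
Deviation of each tested member (rows; 36 of the large subunit, 22 of the small) from its mean over 16 animals (columns, grouped by genotype), in log2, with red above and blue below. The column of Mst1 1466 is red in 54 of 58 rows, and the row of Rpl3l runs from red in Ntg to blue in the genotypes with Mst1.

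Members rose and fell together in single animals. The median deviation of the 58 members from their means was 0.24 log2 in Mst1 1466, where 54 were above the mean, against -0.08, -0.04 and -0.14 in the other Mst1 animals. Both arrays of Mst1 1466 were high, with 48 and 55 members above the mean. The next highest animal was dnPI3K 1660 at 0.13 log2 with 47 members above, and 45 and 50 on its labelled left and right arrays. The SD of this median over the 4 animals was 0.03 log2 for Ntg, 0.07 for dnPI3K, 0.17 for Mst1 and 0.04 for dnPI3K-Mst1. Left and right disagreed in several animals, with 34 and 2 members above the mean in Mst1 1838 and 25 and 5 in Mst1 1840. They were 16 and 49 in dnPI3K 3241, and 45 and 13 in dnPI3K-Mst1 1650.

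Other measures also set Mst1 1466 apart. Its erythroid marker mean was 7.43 log2, against 5.81 to 6.08 in the other Mst1 animals, and its myocyte marker mean was 11.43, against 11.75 to 11.80. Its ribosome biogenesis genes had a median deviation of -0.03 log2, against 0.13 to 0.19 in the others, and the median over all genes was -0.08. The part of these measures in the high ribosomal protein signals was not tested.

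Without Mst1 1466, 8 members were called lower in Mst1 against Ntg and 0 higher, where 14% of all genes were called lower and 17.5% higher. They were Rpl3l (-1.14 log2), Rps10 (-0.37), Rpl24 (-0.34), Rps29 (-0.34), Rpsa (-0.31), Rps13 (-0.29), Rpl36 (-0.25) and Rpl28 (-0.17). Of all 58 members 42 were then negative, with a median of -0.083 log2. The share of 8 in 58 is near the background, and the genes belong to both subunits. Rps29 measured 10.32, 10.42, 10.19 and 10.15 log2 in Ntg, 9.95, 9.93 and 9.93 in 3 Mst1 animals, and 10.67 in Mst1 1466. Against dnPI3K, 6 members were lower in Mst1 without this animal (Rpl3l, Rpl9, Rps10, Rps28, Rps29 and Rpsa), beside 10.1% of genes called lower.

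**Figure D4:**
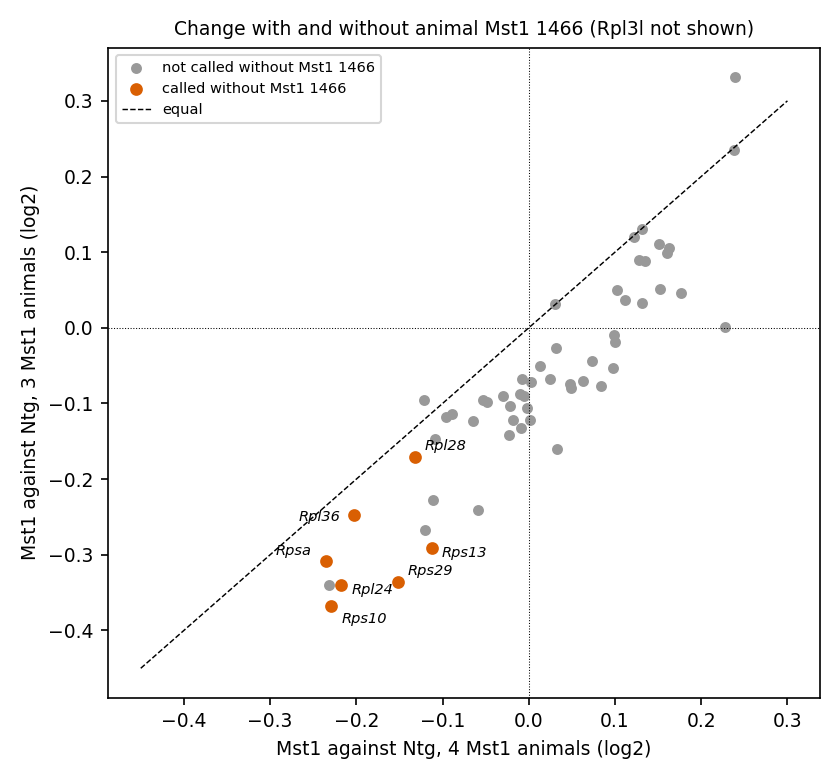
Change of each member between Mst1 and Ntg (log2) with all 4 Mst1 animals (horizontal axis) and without Mst1 1466 (vertical axis); orange points were called without that animal, the dashed line marks equal values, and Rpl3l (-1.08 and -1.14) lies outside the plot. Most points lie below the line, and 42 of 58 members are negative on the vertical axis.

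Rpsa, which is both a small subunit protein and a laminin receptor, showed the largest disagreement between probe sets in Mst1 against Ntg. Its brightest probe set changed by -0.24 log2 (adjusted p = 0.0547), while the 4 others changed by -0.02 to -0.11. In 25 of the 39 members with several probe sets, all changes in this comparison had one sign. Across 214 single-symbol probe sets of members, 0 were called higher and 4 lower in Mst1 against Ntg (Rpl3l and 3 of Rpl36), beside 26.5% of all 16688 such probe sets called. In dnPI3K-Mst1, 10 were lower and 0 higher, beside 30.5%. Of 233 further probe sets that carry a ribosomal symbol among several, and can detect related copies, 1 was higher and 0 lower in Mst1, 0 and 0 in dnPI3K, and 1 higher and 9 lower in dnPI3K-Mst1. In that fit of 17808 probe sets, 25.3%, 3.44% and 29.2% of all were called in the same order.

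The mitochondrial ribosomal proteins, which build the separate ribosome of the organelle, are the family nearest in kind. For this and the lists that follow, the shares of all genes called higher and lower were 12.6% and 14.2% in Mst1, 1.29% and 2.75% in dnPI3K, and 16.4% and 14.2% in dnPI3K-Mst1. Of 77 tested, 50 were lower and 1 higher in Mst1, 16 lower and 0 higher in dnPI3K, and 66 lower and 0 higher in dnPI3K-Mst1, with medians of -0.32, -0.22 and -0.49 log2. These calls cover 66.2%, 20.8% and 85.7% of the list, above the shares of all genes called (26.8%, 4.05% and 30.6%). Mrpl42 was the most reduced in Mst1 and dnPI3K-Mst1, by 2.14-fold and 2.52-fold. The proteasome, another large complex with fixed stoichiometry, had 11 of 39 subunits higher and 3 lower in Mst1 (median 0.14 log2), 0 and 1 in dnPI3K, and 1 and 2 in dnPI3K-Mst1. The calls cover 35.9%, 2.56% and 7.69% of the proteasome list in the same order, the last below the 30.6% of all genes.

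Some of the genes that make ribosomes rather than compose them were higher in Mst1. Of 71 factors of ribosome biogenesis and RNA polymerase I, which transcribes ribosomal RNA, 25 were higher and 1 lower in Mst1, 0 and 0 in dnPI3K (0 and 6 at an unadjusted p under 0.05), and 14 higher and 7 lower in dnPI3K-Mst1. The share called was 36.6% in Mst1, beside 26.8% of all genes, and 29.6% in dnPI3K-Mst1, near the 30.6% of all genes. In Mst1, Rrp12, an exporter of ribosomal subunits, rose 1.70-fold, the nucleolar GTPase Gnl3 1.64-fold, and Nop58, of the particles that methylate ribosomal RNA, 1.504-fold. Without Mst1 1466 the counts in Mst1 were 34 higher and 2 lower, beside 17.5% of all genes called higher and 14% called lower.

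Few other TOP genes were called. Of 21 genes, 4 were higher and 0 lower in Mst1, 0 and 0 in dnPI3K (2 higher at an unadjusted p under 0.05), and 5 higher and 0 lower in dnPI3K-Mst1. The share called was 19.0% in Mst1 and 23.8% in dnPI3K-Mst1, below the 26.8% and 30.6% of all genes, and no direction is read from so few calls. Gas5, a non-coding TOP transcript that hosts small nucleolar RNAs, rose 1.68-fold in Mst1 and 1.57-fold in dnPI3K-Mst1, and Pabpc1, the poly(A) binding protein, 1.38-fold in both. The elongation factor gene Eef1a1 rose 1.15-fold in Mst1 and 1.21-fold in dnPI3K-Mst1.

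Among 40 genes of PI3K, mTORC1 and translational control, 6 were higher and 8 lower in Mst1, 1 and 1 in dnPI3K, and 6 and 7 in dnPI3K-Mst1. The shares called, 35%, 5% and 32.5%, lie near those of all genes (26.8%, 4.05% and 30.6%). Myc, a transcription factor that drives ribosome production, rose 1.85-fold in Mst1 (adjusted p = 5.96e-04) and 1.92-fold in dnPI3K-Mst1. Pik3r1, the regulatory subunit of PI3K, fell 1.80-fold in Mst1, and the stress factor Atf4 rose 1.60-fold. In dnPI3K the cap-binding factor Eif4e fell 1.38-fold (adjusted p = 0.00446) and the other call was Pik3ca.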

How the data were processed

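The authors deposited one value per probe set and array on a log2 scale; per the submitters' processing notes Affymetrix Expression Console and PLIER were used, with roles, versions, background correction and scaling not given in the sources used here. The base of the logarithm was inferred from the range, 1.16 to 14.08. Arrays received cDNA from 100 ng of total RNA, per the labels' protocols. Of 35512 probe sets, 21789 carried a single symbol in the platform annotation, and genes with a mean under the 30th percentile (4.48 log2) were left out.

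An animal's 2 arrays were averaged and 16 animals of 4 genotypes were fitted together in limma 3.58.1 (R 4.3.3; lmFit, eBayes with trend, two-sided, Benjamini-Hochberg over 15219 genes). The procedure was also run on simulated data, in which 200 genes changed and shifts as small as those of most members were not recovered. In Mst1 against Ntg 4084 genes were called, so the adjustment there was less strict and this recovery does not carry over to it. The labels do not say more of how animals were bred or processed, so the tests speak only of variation among these mice. Members and lists were chosen with earlier results of these data known, and such counts are no independent support. Named members are those called, the paralog pairs, the stalk genes, Rps6, Rpsa, Rps4x, Rpl5, and up to 4 called genes of each other list; genes named from other counts were chosen after their values were seen. The 2 arrays of an animal deviated together weakly (median correlation 0.048; above 0.1 in 7 of 16 animals). Alternatives covered scaling, filter, probe set choice, variance estimate, array weights, single sides, a block for the animal, and each animal left out.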

Additional observations from a re-analysis of the deposited data

Results flagged for a closer look

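Of 236 groups of 4 animals examined (58 members and their median in each genotype), 30 held an animal whose gap to its nearest neighbour exceeded Dixon's critical value; chance alone does so in about 1 of 20 groups, and the genes of one animal are not independent. In 16 of the 30 the animal was Mst1 1466, in each case the highest of its group: Rpl10a (10.93 log2), Rpl14 (7.31), Rpl19 (11.46), Rpl23 (11.58), Rpl26 (7.92), Rpl36a (10.61), Rpl38 (11.07), Rpl7 (10.74), Rpl9 (11.57), Rps12 (11.30), Rps15 (11.17), Rps20 (11.09), Rps21 (10.23), Rps28 (10.24), Rps29 (10.67) and Rpsa (10.36). The animal dnPI3K-Mst1 1649 was the lowest of its group in 5: Rpl8 (10.16 log2), Rpl9 (11.35), Rplp1 (11.68), Rps13 (8.39) and Rps18 (11.19).

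Ntg 1662 was the lowest for Rpl23a (10.49 log2) and for Rpl30 (6.85, the next animal at 7.32) and the highest for Rpl36 (10.59). In dnPI3K, animal 1660 was the highest for Rplp0 (11.79 log2) and Rplp1 (11.93), animal 3241 the lowest for Rpl7a (9.01) and Rps25 (10.59), and animal 1507 the lowest for Rpl10a (10.59). In dnPI3K-Mst1, animal 1509 was the lowest for Rpl41 (10.01 log2).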

How the results depend on the processing

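Rpl3l was called lower under all 27 alternatives in which it was tested for Mst1 and dnPI3K-Mst1 against Ntg and against dnPI3K. A filter at the 50th percentile removed it. That left 1 member lower in dnPI3K-Mst1 against Ntg (beside 1984 of all genes) and 1 against dnPI3K (beside 1190). Rpl36 was called in 26 of 28 alternatives for dnPI3K-Mst1 against Ntg and in 20 of 28 against dnPI3K. A fit of all 32 arrays took the animal as a replicate block (correlation 0.115). It gave 2 members lower in Mst1 against Ntg (beside 2199 of all genes) and 2 in Mst1 against dnPI3K (beside 1621). Against dnPI3K the block lost Rpl36 in dnPI3K-Mst1. No other count of member calls moved by over 1.5 times under it. Array weights gave 9 lower in Mst1 against Ntg (beside 2646), and 1 higher and 4 lower in dnPI3K-Mst1 against Ntg (beside 3273 and 2530). Against dnPI3K they gave 1 higher and 4 lower in dnPI3K-Mst1 (beside 2580 and 1680), and 1 higher and 14 lower in Mst1 (beside 2826 and 2067). Without the 4 animals with an array under a mean correlation of 0.97, 7 members were lower in Mst1 against Ntg (median -0.095 log2, beside 2067 genes). In dnPI3K-Mst1 against Ntg 4 were lower (beside 2326). Against dnPI3K, 6 were lower in dnPI3K-Mst1 (beside 1404) and 14 in Mst1 (median -0.18 log2, beside 1435). Fitting only the groups compared gave 4 lower in dnPI3K-Mst1 against Ntg (beside 2270), and quantile normalization 2 lower in Mst1 against dnPI3K (beside 1685). Arrays of either labelled side alone gave 1 lower in dnPI3K-Mst1 against Ntg (beside 1276 for left, 1714 for right). Against dnPI3K they also gave 1 lower in dnPI3K-Mst1 (beside 682 for left, 1032 for right). With each animal left out in turn, members called lower ranged from 1 to 8 in Mst1, 0 to 1 in dnPI3K and 2 to 3 in dnPI3K-Mst1 against Ntg, and from 1 to 4 in dnPI3K-Mst1 and 1 to 6 in Mst1 against dnPI3K; members called higher ranged from 0 to 2 in dnPI3K-Mst1 against Ntg and from 0 to 1 in both comparisons with dnPI3K. The highest lower counts in Mst1 against Ntg and in both comparisons with dnPI3K came without Mst1 1466, and the 1 in dnPI3K without dnPI3K 1648 (beside 336). Without Mst1 1466, 2137 of all genes were lower in Mst1 against Ntg. Against dnPI3K, 1565 were lower in dnPI3K-Mst1 and 1539 in Mst1. Leaving out Ntg 1834 gave 2 lower in Mst1 against Ntg (Rpl3l, Rpsa, beside 1986) and 2 higher in dnPI3K-Mst1 against Ntg (Rpl12, Rpl30, beside 2102). Leaving out dnPI3K-Mst1 1509 gave Rpl12 as 1 higher in dnPI3K-Mst1 against Ntg (beside 2118) and against dnPI3K (beside 1570). Leaving out Mst1 1840 gave Rps27l as 1 higher in Mst1 against dnPI3K (beside 1410). Rpl3l and Rpl36 kept their sign under every alternative in the comparisons where the main fit called them. Rps19 did not keep its sign. It was among the 14 lower in Mst1 against dnPI3K without the 4 animals of low correlation. With all animals it was not called, and its mean was higher in Mst1 than in dnPI3K (-0.06 and -0.17 log2 against Ntg). Rpl36 was not called against dnPI3K without dnPI3K 1660, dnPI3K 3241, or any of dnPI3K-Mst1 1647, 1649 and 1650. The cause of these differences was not tested. Dim signals limit Rpl3l, Rpl10l and Rpl39l.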
